A study of Mus musculus with 4 samples.

Results

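Subcluster 6 is 1 of the 10 groups, numbered from 0, into which the authors divided the group 2 innate lymphoid cells (ILC2s) of a single-cell RNA sequencing experiment. It was taken by that number in their deposited ILC2 subcluster table, where it lists 190 genes, out of 2629 genes listed for any subcluster, and it holds 516 of about 14003 ILC2s. The working name of the subcluster comes from *Serpinb6a* and *Tox2*, and *Plac8* is a further marker of it. The ILC2s came from the livers and lungs of 8-week-old wild-type BALB/c mice that received intraperitoneal PBS, the control, or recombinant IL-33 (rIL-33) at 0.5 µg on each of 5 days. The 4 groups (PBS lung, PBS liver, rIL-33 lung and rIL-33 liver) hold 1 library each. Cells of both organs were sorted as lineage-negative CD127+ Thy1+ ST2+ cells, and the lineage antibodies included CD3e and TCRb. The authors clustered all 4 libraries together and the table has no value per library, so how subcluster 6 divides between organs or treatments was not analysed here. There is no replicate behind any value below.

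ILC2s are tissue-resident lymphocytes without a rearranged antigen receptor. They answer alarm cytokines such as IL-33, which binds ST2 (encoded by *Il1rl1*), and IL-25, which binds a receptor that contains IL-17RB, and they depend on the transcription factor GATA3. Once activated they release IL-5 and IL-13. Activated ILC2s can also carry receptors better known from T cells, such as KLRG1, PD-1 and CTLA-4.

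Each row of the table, called a listing here, names a gene whose average level the authors found higher in a subcluster than in all other ILC2s. It gives the percentage of cells in which the gene was detected (a value above 0), called the share here, first inside the subcluster and then in all other ILC2s. A listed gene can still have a lower share inside, as most listings of subcluster 5 do. A gene that a subcluster does not list was lower there, unchanged, too rare or below the authors' threshold, and its share there is not known. The same cells made both the subclusters and the lists, so the differences in share describe the subcluster and were not tested. Such a share also depends on how deeply each cell was sequenced, which was not known here.

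The number of cells was read from the shares themselves. A share of fewer than 1000 cells, rounded to 3 decimals, can take only some values, and 516 was the smallest number for which all 190 shares of subcluster 6 were whole cells. The next number that allowed this was 800. The size solved separately, from genes that several subclusters list, was 3.72% of the ILC2s, and 516 cells were 3.69% of the 14003 cells solved from the 5 smallest subclusters. Each share inside subcluster 6 could therefore be given as a number of cells with an exact 95% binomial (Clopper-Pearson) interval, which covers counting error only.

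*Serpinb6a*, which encodes an intracellular serine protease inhibitor, had the largest difference in share of all 190 genes. It was found in 461 of the 516 cells, 89.3% (95% interval 86.4 to 91.9), against 57.5% of all other ILC2s. It was also listed for subclusters 2, 4, 8 and 9, where 78.5%, 78.2%, 80.9% and 74.1% of cells had it. The share of subcluster 6 was the highest of these 5, and the point values of all 4 others lay below its interval. Counting error of the others was left out, and subclusters 8 and 9 hold only 89 and 81 cells. In the subclusters that did not list it, *Serpinb6a* was found in 48.6% of cells, so the gene was common in ILC2s outside subcluster 6 as well. The gene lies on chromosome 13 of GRCm38 (33917918 to 34002794, minus strand, protein coding).

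*Tox2*, a member of the TOX family of high mobility group transcription factors, ranked 3 of 190 by difference in share. It was found in 284 cells, 55.0% (50.6 to 59.4), against 24.7% of all other ILC2s, and was listed for subclusters 2 (42.3%), 4 (49.2%) and 7 (64.5%). Subcluster 7 thus had a higher share than subcluster 6, and only 15.7% of cells in the subclusters that did not list *Tox2* had it. Its paralogue *Tox* was listed for subclusters 7 and 9 (56.5% and 51.9%) and not for subcluster 6. *Tox2* lies on chromosome 2 (163203125 to 163324170, plus strand, protein coding).

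*Plac8*, which encodes a small cysteine-rich protein, was found in 223 cells, 43.2% (38.9 to 47.6), against 26.5%. Subclusters 2, 4, 7 and 8 had shares of 41.5%, 45.8%, 61.5% and 41.6%. By difference in share *Plac8* ranked 93 of the 190 genes. Of *Serpinb6a*, *Tox2* and *Plac8*, only *Serpinb6a* had its highest share in subcluster 6 among the subclusters that list it. *Plac8* lies on chromosome 5 (100553725 to 100572245, minus strand, protein coding).

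**Figure D1:**
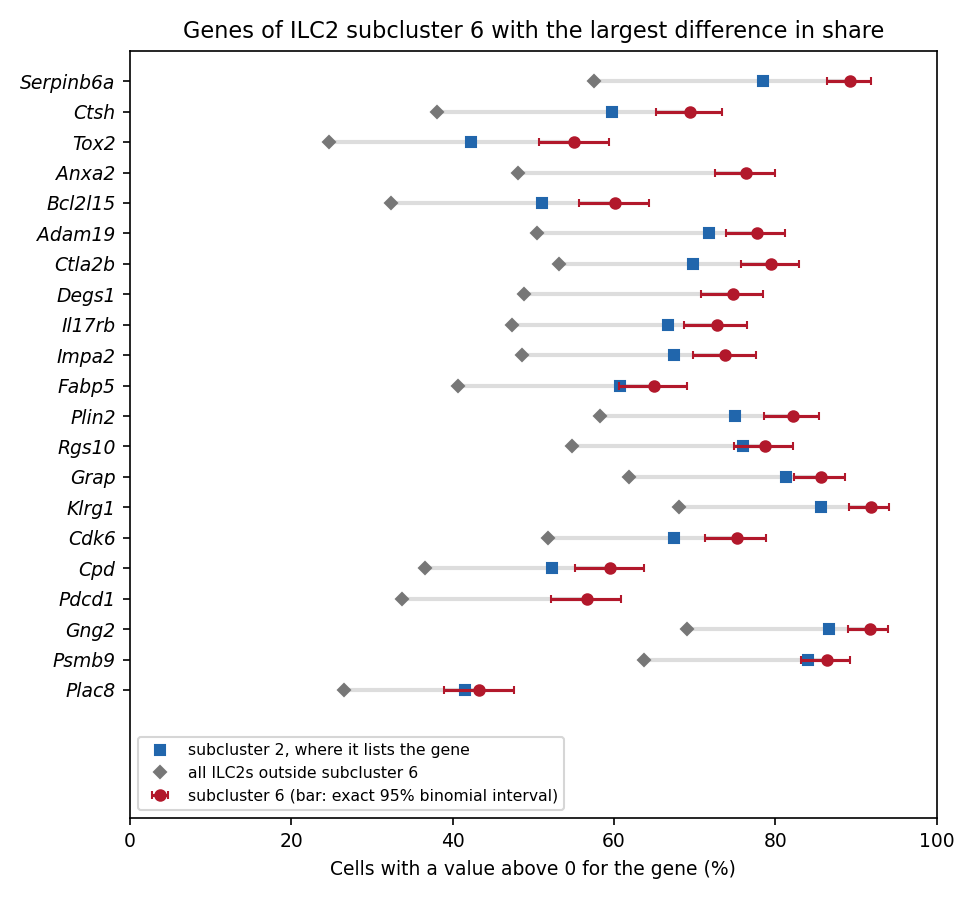
The percentage of cells with a value above 0 for a gene (horizontal axis) is drawn for the 20 genes of subcluster 6 with the largest difference in share, with *Plac8* below them. Red points are subcluster 6 with exact 95% binomial intervals, blue squares are subcluster 2 where it lists the gene, and grey diamonds are all ILC2s outside subcluster 6. For *Serpinb6a*, *Ctsh* and *Tox2* the blue square lies below the red interval, whereas for *Plac8* it lies within it, and *Anxa2*, *Degs1* and *Pdcd1* have no blue square.

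The promoters of *Serpinb6a* and *Tox2* are shown because the subcluster is named after these genes. Sequences are from RefSeq (GRCm38.p6), 250 bases before the most upstream start and written 5′ to 3′ on the strand of the gene. Capitals mark CCGGAA, the core of sites bound by ETS family factors, or its reverse complement TTCCGG, and the matches at the second place in *Serpinb6a* overlap each other on opposite strands. The first is at chr13:34002795-34003044 (minus strand) and the second at chr2:163202877-163203126 (plus strand).
Serpinb6a: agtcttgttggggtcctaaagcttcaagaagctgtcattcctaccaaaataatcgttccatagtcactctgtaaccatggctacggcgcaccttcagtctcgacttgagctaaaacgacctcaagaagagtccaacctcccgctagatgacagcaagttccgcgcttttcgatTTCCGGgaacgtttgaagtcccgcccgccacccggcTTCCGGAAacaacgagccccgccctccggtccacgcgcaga
Tox2: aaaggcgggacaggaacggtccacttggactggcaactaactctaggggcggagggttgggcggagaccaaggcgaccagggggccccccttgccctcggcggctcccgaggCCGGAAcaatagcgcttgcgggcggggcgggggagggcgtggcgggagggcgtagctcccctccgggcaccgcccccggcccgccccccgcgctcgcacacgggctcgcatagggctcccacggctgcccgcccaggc
The window of *Serpinb6a* held 3 matches and had a GC content of 54.4%, and that of *Tox2* held 1 match at a GC content of 75.2%. Over both strands, CCGGAA was present in 17.9% of the 151 promoters found for genes of subcluster 6, in 24.7% of the 2122 promoters of genes listed for any subcluster and in 12.3% of all 27025 promoters. TGGGAA, the core bound by RBPJ, was present in 23.8%, 18.6% and 21.5% of these sets. AGATAA, recognised by GATA factors, was present in 8.61%, 6.27% and 10.2%. TGANTCA, the AP-1 site, was present in 10.6%, 4.67% and 6.85%. These matches are letters in a window and do not show binding.

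The list of subcluster 6 covers 7.23% of the 2629 genes listed for any subcluster, and all 190 of its genes had a higher share inside than outside. The difference ranged from 0.2 to 31.8 percentage points with a median of 16.4, beside a median of 13.3 over all 3745 listings of the table. By subcluster, the medians were -21.3 points in subcluster 5 (1000 listings), 1.35 in 0, 6.4 in 3, 13.9 in 9, 15.8 in 1, 16.1 in 2, 18.9 in 8, 23.1 in 7 and 34.1 in 4. For 189 genes the whole interval of the share inside lay above the share outside, the exception being *H2-D1*, an MHC class I gene found in every cell of subcluster 6 and in 99.8% of the others. Most listed genes were common, with 66 found in at least 95% of the cells of subcluster 6, 11 in every cell and only 27 in under 50%. A difference of at least 20 points was reached by 38 genes.

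Further genes of the list are given by role and not in order of difference. *Ctsh*, the lysosomal cysteine protease cathepsin H (chromosome 9, 90054152 to 90076089, plus strand), was found in 358 cells, 69.4%, against 38.0% of the other ILC2s. *Adam19*, a membrane metalloprotease, was found in 77.7% against 50.4%, and *Ctla2b*, which encodes a protein related to cysteine protease propeptides, in 79.5% against 53.2%. *Lgmn*, the lysosomal protease legumain, was found in 53.1% against 33.7%, and *Cpd*, carboxypeptidase D, in 59.5% against 36.5%. These genes were put together after their values were seen, and of the 10 genes in the table from a list of serpins and proteases, subcluster 6 listed 2, *Serpinb6a* and *Lgmn* (beside 7.23% of all listed genes). That list does not hold *Ctsh*, *Adam19* or *Cpd*.

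Among genes of lipid handling, *Fabp5*, a fatty acid binding protein, was found in 64.9% of this subcluster against 40.6%. Its share was higher in subclusters 4 (86.1%) and 7 (71.5%) and lower in subcluster 2 (60.7%). *Plin2*, a coat protein of lipid droplets, was found in 82.2% against 58.3%. *Degs1*, a desaturase of ceramide synthesis, was found in 74.8% against 48.8%, and *Acot7*, an acyl-CoA thioesterase, in 88.4% against 65.8%. *Ech1* and *Eci2*, isomerases in the oxidation of unsaturated fatty acids, were found in 82.6% against 63.5% and in 58.7% against 40.9%. These 6 genes were grouped after their values were seen, so the group is a reading aid and not a list that was counted against the rest.

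Receptors and signalling genes included *Il17rb*, the IL-25 receptor subunit, in 375 cells, 72.7% (68.6 to 76.5), against 47.4% of the other ILC2s. Subclusters 2, 9 and 3 had shares of 66.7%, 65.4% and 52.4%, with all point values below that interval. The share of subcluster 9 rests on 81 cells, and its own counting error was left out. *Klrg1*, an inhibitory receptor of mature ILC2s, was found in 474 cells, 91.9% against 68.1%, level with the 92.1% of subcluster 1. *Rbpj*, the DNA-binding partner of Notch, was found in 96.7% against 76.2%, *Rgs10*, a regulator of G protein signalling, in 78.7% against 54.8%, and *Cdk6*, a kinase of the G1 phase, in 75.2% against 51.8%. *Impa2*, an inositol monophosphatase, was found in 73.8% against 48.6%, and *Bcl2l15*, a member of the BCL2 family, in 60.1% against 32.4%. Subclusters 4 and 8 had higher shares of *Cdk6* (82.9% and 79.8%) and of *Impa2* (80.7% and 74.2%). Subcluster 2 had lower ones, at 67.4% for each gene.

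To state what separates subcluster 6 from subcluster 2, the genes of both lists were set side by side. Subcluster 2 is larger, at 18.3% of the ILC2s, and lists 131 genes, 4.98% of those listed for any subcluster. Both lists held 104 genes, which is 54.7% of the list of subcluster 6 and 79.4% of that of subcluster 2. Thus 86 genes were listed for 6 and not 2, and 27 for 2 and not 6. Each list was made against all other ILC2s, so each subcluster is part of the other's reference and most reference cells are shared, and the overlap is a description. Of the 12 genes of subcluster 6 with the largest difference in share, 10 were also listed for subcluster 2.

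Where both listed a gene, the share was nearly always higher in subcluster 6. This held for 100 of the 104 genes, 2 were equal (*Nme2* and *H2-K1*) and 2 were lower (*Dkk3*, with a difference of -0.9 points, and *Eif3f*, with -0.1). The median excess of subcluster 6 was 2.5 points and the range was -0.9 to 12.7. The share in subcluster 2 lay below the whole interval of subcluster 6 for 48 genes and above it for 0. *Ctla4* had shares of 55.6% and 55.4%. These intervals cover the counting of cells only, and no difference between the subclusters was tested.

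Among the 104 genes with a share in both, those that differed most were *Tox2* (55.0% in subcluster 6 and 42.3% in subcluster 2) and *Serpinb6a* (89.3% and 78.5%). They were followed by *Ctla2b* (79.5% and 69.8%), *Ctsh* (69.4% and 59.7%), *Bcl2l15* (60.1% and 51.1%) and *Cdk6* (75.2% and 67.4%). These 6 genes were picked for the size of this difference. The genes that differed least, beside those equal or lower, were *Cd52*, *Hmgb2* and *Coro1a*, each 0.1 points higher in subcluster 6. *Plac8* was 1.7 points higher in subcluster 6.

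**Figure D2:**
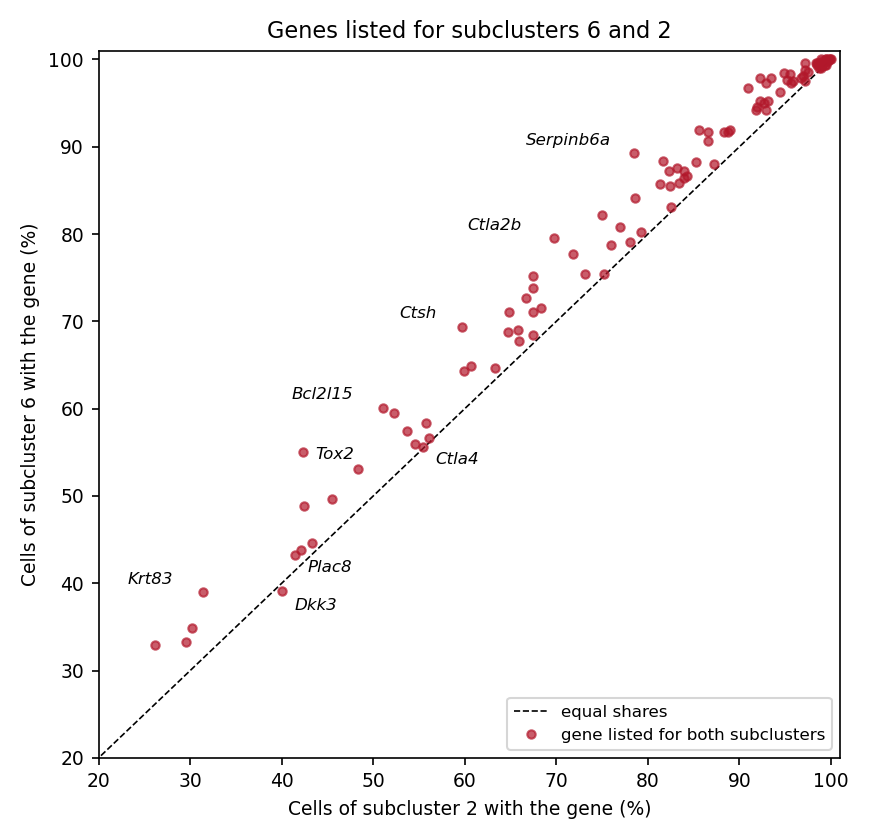
Each of the 104 points is a gene listed for both subclusters, placed by the percentage of cells with a value above 0 in subcluster 2 (horizontal axis) and in subcluster 6 (vertical axis), both axes from 20. The dashed line marks equal shares, and 100 points lie above it, with *Tox2* and *Serpinb6a* farthest from it and *Dkk3* just below.

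The 86 genes that subcluster 6 listed and subcluster 2 did not had differences in share of 0.2 to 28.3 points with a median of 15.8, beside 17.6 for the 104 genes of both lists. The difference was largest for *Anxa2*, which encodes the membrane-binding protein annexin A2 (chromosome 9, 69453620 to 69491795, plus strand). It was found in 394 cells, 76.4% (72.4 to 80.0), against 48.1% of the other ILC2s, and was listed with 81.7% for subcluster 1, 81.5% for 4, 63.0% for 7 and 76.4% for 8. *Pdcd1*, the gene of the inhibitory receptor PD-1, was found in 292 cells, 56.6% (52.2 to 60.9), against 33.7%. Subclusters 1, 7 and 8 had shares of 44.0%, 74.0% and 46.1%. Both genes were thus shared with subclusters 1, 7 and 8.

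Other genes of the 86 were also shared with subclusters other than 2. *Sdf2l1*, an endoplasmic reticulum chaperone partner, was found in 55.6% inside against 35.5% outside, and in 82.4% of subcluster 4. *Cela1*, an elastase gene, was found in 38.0% against 18.0%, and in 28.6% of subcluster 1. *Capg*, an actin capping protein, was found in 80.4% against 60.7%, and in 82.7% of subcluster 9. *Arhgap9*, a GTPase-activating protein, was found in 76.0% against 55.2%, and was also listed for subcluster 5, where only 21.9% of cells had it. *Higd2a* and *Romo1*, which encode mitochondrial proteins, were found in 85.5% against 64.9% and in 79.5% against 59.9%. *Dap* was found in 80.0% against 60.1%, and *Vmp1*, an autophagy gene, in 75.8% against 56.0%.

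No other subcluster listed 27 of the 86 genes. *Degs1* led these, with 386 cells or 74.8% (70.8 to 78.5) against 48.8%. It was followed by *Ccdc50* (74.6% against 54.0%), *Gng10*, a G protein gamma subunit (90.1% against 70.7%), and *Pon2*, a paraoxonase (58.5% against 39.4%). *Pstpip1*, a cytoskeletal adaptor, was found in 73.6% against 54.5%, and *Borcs8*, a subunit of a lysosome-positioning complex, in 76.7% against 58.2%. *Cstb*, the cathepsin inhibitor cystatin B, was found in 70.0% against 51.8%. None of these is restricted to subcluster 6, since 39.4% or more of the remaining ILC2s had each of them. The genes of the 27 found in few cells included *Actn2*, in 155 cells (95% interval 26.1% to 34.2%) against 13.8%, *Rln3*, in 26.0% against 11.8%, and *Rnase4*, in 34.3% against 19.1%.

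The ratio of both shares was highest for *Lxn*, a carboxypeptidase inhibitor, found in 130 cells, 25.2% (21.5 to 29.2), against 10.4%, a ratio of 2.42. *Lxn* was also listed for subclusters 7 (32.0%) and 9 (28.4%). No gene of the 190 was therefore as much as 3 times as frequent inside subcluster 6 as outside by share of cells. Genes found in under 40% of the cells of subcluster 6 numbered 14, of which 9 were not listed for subcluster 2.

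In the other direction, subcluster 2 listed 27 genes that subcluster 6 did not. *Il13*, the type 2 cytokine gene, was found in 56.5% of subcluster 2 against 32.6% outside it, and was listed for subclusters 1, 2, 4, 7 and 8. *Batf*, an AP-1 family transcription factor, was found in 73.1% against 51.3%, and *Tmem173*, which encodes STING, in 61.7% against 42.1%. *Sytl3* (58.9% against 39.5%), *Gpr171* (76.2% against 57.2%), *Sys1* (76.6% against 57.7%), *Sema4d* (71.3% against 52.4%) and *Ddt* (67.2% against 48.4%) came next. The heat shock genes *Hspa1a* (28.7% against 15.3%), *Hspa1b* (33.1% against 18.8%) and *Dnajb1* (49.1% against 38.6%), the phosphatase gene *Dusp1* (83.7% against 74.2%) and the decoy receptor gene *Il1r2* (29.2% against 16.3%) were also in this group. The share of these 27 genes in subcluster 6 is not known, so a lower level there was not shown.

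Subcluster 6 also shared genes with the other subclusters. Subcluster 1 lists 363 genes, 13.8% of those listed for any subcluster, and 75 of them were among the 190 (39.5% of the list of 6 and 20.7% of that of 1). Subclusters 4, 8, 9 and 7 list 30.5%, 9.62%, 7.57% and 10.3% of the 2629 genes, and they shared 52, 50, 27 and 22 genes with subcluster 6. Subclusters 5, 3 and 0, which list 1000, 237 and 300 of the 2629 genes, shared 11, 3 and 2 genes with subcluster 6. Of the 11, 10 had a lower share inside subcluster 5 than outside it. Of the 86 genes not listed for subcluster 2, 25 were listed for subcluster 1 and 20 for subcluster 4. Those of subcluster 1 included *Anxa2*, *Pdcd1*, *Lgals1*, *Lgals3*, *S100a4*, *S100a6*, *Vasp* and *Cfl1*. Those of subcluster 4 included *Sdf2l1*, *Calr*, *Top2a*, *Atp5c1* and *Txn1*.

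The direction of the shares differed between these pairs. Against subcluster 1, the share was higher in subcluster 6 for 57 of 75 genes, lower for 12 and equal for 6. Against subcluster 4 it was higher for 14 of 52 genes and lower for 37. Of the 163 genes that at least 1 other subcluster lists, 90 had their highest share in subcluster 6, and for 83 of these the share was above that of every other subcluster that lists the gene, without ties. By number of subclusters, 27 genes were listed for 6 alone, 58 for 2 subclusters, 46 for 3, 42 for 4, 15 for 5 and 2 for 6 subclusters. Only 18 genes, *Krt83* and *Hcls1* among them, were listed for subclusters 2 and 6 and no other.

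**Figure D3:**
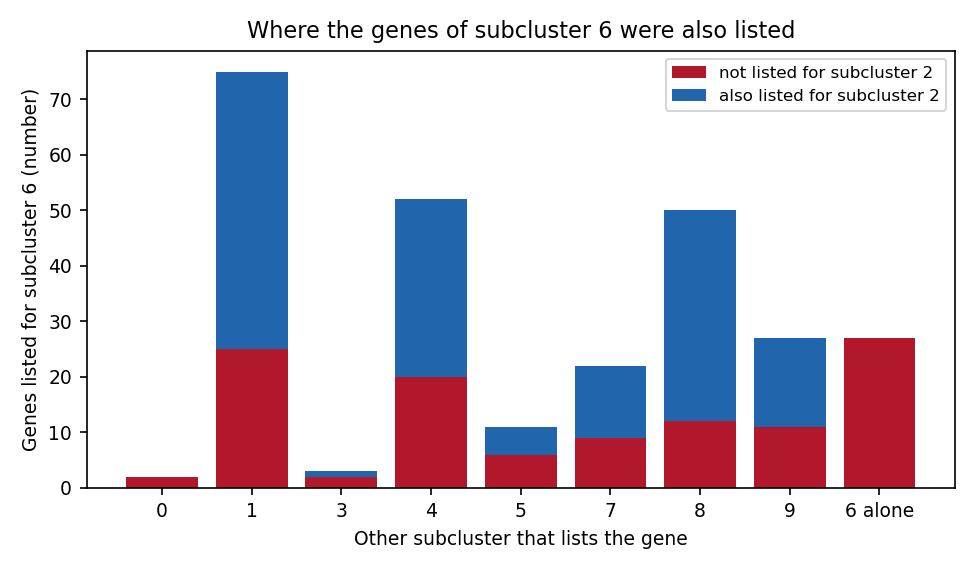
Bars give the number of the 190 genes of subcluster 6 that each other subcluster also lists, split into genes that subcluster 2 lists (blue) and does not list (red), with the genes listed for subcluster 6 alone at the right. Subcluster 2 itself, with 104 shared genes, is not drawn. Subcluster 1 shares 75 genes and subcluster 4 shares 52, and 27 genes have no other subcluster.

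Lists of genes of known function were then counted, beside the 7.23% of all genes that subcluster 6 lists and the median difference of 16.4 points over its list. The list of S100 proteins, galectins and annexins had 11 genes in the table, of which subcluster 6 listed 6, subcluster 2 listed 1 and subcluster 1 listed 9. The 6 were *Anxa2*, *Lgals3*, *Lgals1*, *S100a11*, *S100a6* and *S100a4*, with a median difference of 11.3 points, and 5 of them were not listed for subcluster 2. *S100a6* was found in all 516 cells and *Lgals1* in 515, against 93.3% and 86.7% of the other ILC2s.

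Of 17 actin cytoskeleton genes in the table, subcluster 6 listed 11, subcluster 2 listed 5 and subcluster 1 listed 16. The 11 had a median difference of 6.0 points and shares of 80.4% to 100% in subcluster 6. *Capg*, *Capzb*, *Arpc1b*, *Arhgdib*, *Cfl1* and *Myl6* were listed for 6 and not 2, and *Cotl1* (99.6% against 88.3%), *Arpc5*, *Arpc3*, *Actg1* and *Coro1a* for both. By comparison, subcluster 1 listed all of these 11 but *Capg*.

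Subcluster 6 listed 6 of 13 immunoproteasome and MHC class I genes, with a median difference of 13.9 points, while subcluster 1 listed 8 and subcluster 8 listed 12. *Psmb9*, a catalytic subunit of the immunoproteasome, was found in 86.4% of cells against 63.7%, and *H2-Q7* in 97.9% against 76.7%. In subcluster 8, *Psmb9* was found in 95.5% and *H2-T22* in 76.4%. *Psmb8* (99.0% against 90.9%), *H2-T22* (71.1% against 51.4%) and *H2-K1* completed the 5 that subcluster 2 also listed, and *H2-D1* was the sixth. No gene of the interferon response list was listed for subcluster 6, of 15 in the table, nor for subclusters 2 or 1.

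For the lists of energy metabolism and the endoplasmic reticulum, subcluster 4 listed the most genes, with 7 of 10 for glycolysis, 39 of 47 for the respiratory chain and ATP synthase and 16 of 26 for the endoplasmic reticulum. The 4 glycolysis genes (of 10 in the table) were *Pgk1* (87.2% against 67.8%), *Gpi1* (97.9% against 81.8%), *Pkm* (98.4% against 84.6%) and *Gapdh* (100% against 93.4%), and subcluster 2 listed all 4. Of 47 respiratory chain and ATP synthase genes, subcluster 6 listed 7 with a median difference of 9.6 points. *Cox5a*, *Cox4i1* and *Atp5g2* were shared with subcluster 2, and *Uqcrq*, *Ndufv3*, *Atp5c1* and *Atp5e* were not. Of 26 genes of protein entry into and folding in the endoplasmic reticulum, subcluster 6 listed 6, with *Sec61g*, *Sec61b*, *Ssr4* and *Spcs2* shared with subcluster 2 and *Sdf2l1* and *Calr* not.

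Of 13 ILC2 identity genes in the table, subcluster 6 listed 2, *Il17rb* and *Klrg1* (15.4%, beside 7.23% of all listed genes). *Gata3* and *Il1rl1* were listed for subclusters 0 and 3, and were found in 89.9% and 86.6% of the ILC2s outside subcluster 0. *Rora* was found in 89.8% of those outside subcluster 3, so these genes were common across the ILC2s, whereas their share in subcluster 6 alone is not known. Of 6 checkpoint and costimulatory receptor genes it listed *Pdcd1* and *Ctla4*, and of 16 TOX family and lineage transcription factor genes only *Tox2*.

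Beside the interferon response list, several lists had 0 genes in subcluster 6. They were the AP-1 family (7 genes in the table), dissociation stress (18), NF-kB subunits and inhibitors (6), cytokine signalling feedback (10), homing and chemokine receptors (14) and MHC class II (2). Subcluster 6 lists 7.23% of all listed genes, so 0 is near that share for lists this short and is not a trait of it. Subclusters 2 and 1 list 4.98% and 13.8% of all listed genes. Subcluster 2 listed 4 of the stress genes (*Hspa1a*, *Hspa1b*, *Dnajb1* and *Dusp1*) and 1 AP-1 gene (*Batf*), and subcluster 1 listed 5 and 1. Subcluster 1 also listed 6 homing genes and 4 NF-kB genes. Of 17 proliferation genes, subcluster 6 listed *Top2a*, a topoisomerase of dividing cells, in 253 cells, 49.0% against 29.6%, and *Hmgb2*, in 99.0% against 92.9%. Subcluster 4 had *Top2a* in 71.5% of its cells, and *Mki67*, *Pcna* and *Stmn1* were listed for subcluster 4 and not for subcluster 6.

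**Figure D4:**
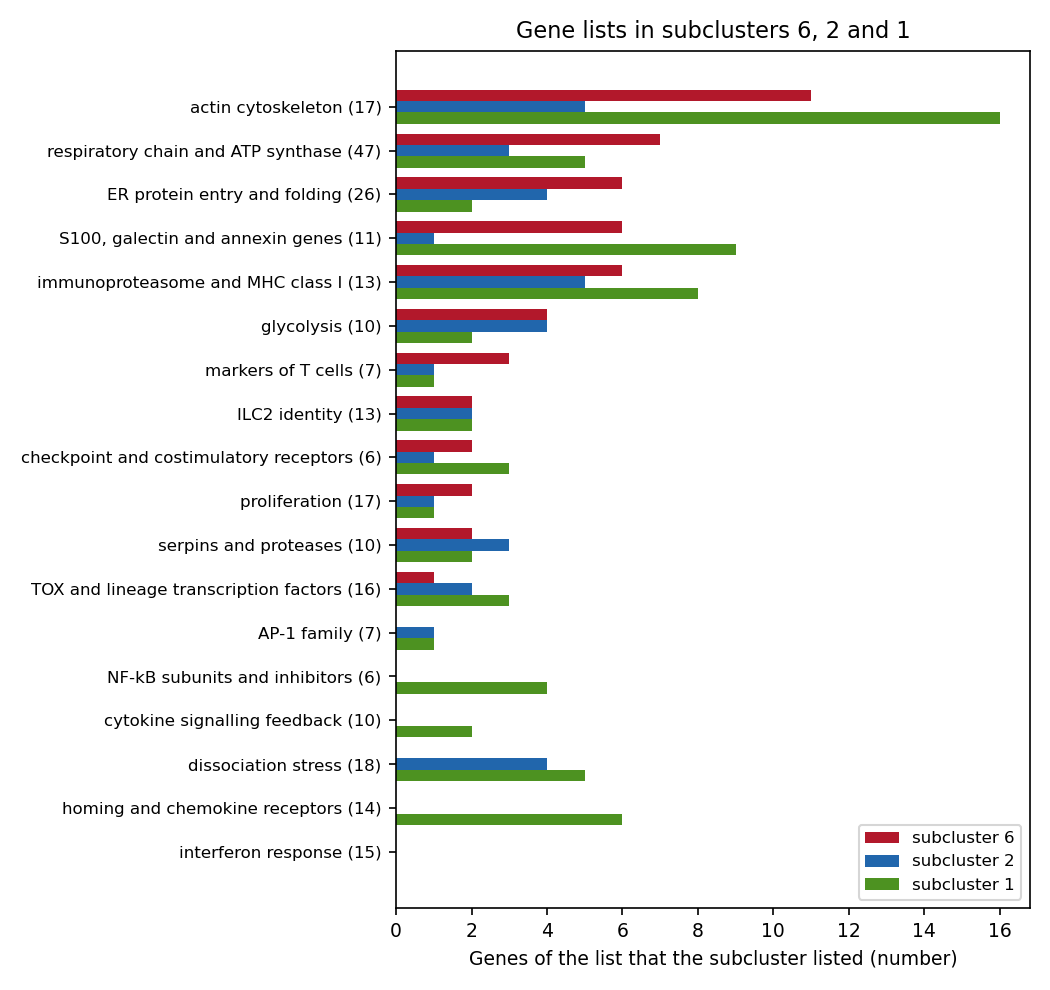
For 18 gene lists with at least 6 genes in the table (their number in brackets), bars give how many of its genes were listed for subcluster 6 (red), subcluster 2 (blue) and subcluster 1 (green). The actin list (11, 5 and 16) and the S100, galectin and annexin list (6, 1 and 9) differ most between subclusters 6 and 2, and 0 genes of the interferon response list appear for any of the 3 subclusters.

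Of 12 T cell markers, 7 were in the table and subcluster 6 listed 3, while *Lck*, *Trbc1*, *Cd3e* and *Trdc* were listed for other subclusters and not for it. *Cd3g* was found in 238 cells, 46.1% (41.8 to 50.5), against 32.4%, *Tcrg-C1* in 207 cells, 40.1% (35.9 to 44.5), against 25.5%, and *Trbc2* in 454 cells, 88.0%, against 81.5%. Subcluster 2 listed *Trbc2* (87.2%) and neither of the other two, and *Tcrg-C4*, which is outside the marker list, was found in 64.7% of subcluster 6, 63.3% of subcluster 2, 69.5% of subcluster 7 and 77.5% of subcluster 8. *Cd3g* was found in 39.5% of subcluster 5, *Tcrg-C1* in 42.0% of subcluster 7 and *Trbc2* in 86.1% of subcluster 1. These transcripts were thus also frequent in the ILC2s outside subcluster 6. *Cd3e*, whose protein was in the sort's exclusion gate, and *Trdc* were listed for subcluster 5 alone, where 32.0% and 25.6% of cells had them. Their levels in subcluster 6 are not known, and the part of T cells in its list was not tested. The authors removed cells expressing Cd3 before subclustering. They reported very low *Cd3g* and *Tcrg-C1* in ILC2s beside gamma delta T cells, and no TCRg detected in ILC2s by flow cytometry. Subcluster 6 listed 0 of the markers of NK cells and ILC1s (2 in the table), B and plasma cells (1), myeloid cells and basophils (2) and lung epithelium and endothelium (1), and no hepatocyte marker was in the table. Cells with markers of other types had been removed by the authors before subclustering, so a count of 0 was partly set in advance. Lists of 1 or 2 genes also say little beside the 7.23% of all listed genes.

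The separate table of 21 cell types, made by the authors over all cells, was used only for which genes it lists. It held 75 of the 190 genes, and 820 genes were in both tables. Of the 21 types, the largest counts were those of 2 types. The type named ILC3 listed 35 of the 75 (46.7%, beside 13.4% of the 820), and the gamma delta T cell type named gdT_TypeIII_CD163l1 listed 37 (49.3%, beside 15.9%). The types named Prolifelation cell, gdT_TypeIII_ITGAE and ILC2 listed 28 (37.3%, beside 43.7%), 24 (32.0%, beside 15.7%) and 12 (16.0%, beside 14.1%). Of the genes that subcluster 6 shared with ILC3 and gdT_TypeIII_CD163l1, 23 and 24 were not listed for subcluster 2. These types shared 12 and 15 genes with subcluster 2. How many genes of either set are in the cell type table is not given here, so these counts cannot be weighed against each other. *Serpinb6a*, *Tcrg-C1* and *Actn2* were listed for both of these types and for gdT_TypeIII_ITGAE. *Pdcd1* was listed for gdT_TypeIII_CD163l1 and gdT_Naive, and *Tox2* for the type named Endothelium cell. The subclusters were made from the cells kept as ILC2s, so these counts compare lists of genes and not the cells of subcluster 6 with those types.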

How the data were processed

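Single-cell 3' libraries (10x Chromium, v3.1 chemistry) were made from sorted ILC2s of 4 groups with 1 library each, pooled from several mice. Reads were processed by the authors with Cell Ranger on mm10, flow cytometry served to leave out dead cells and doublets, cells with few detected genes were dropped, and the merged cells were clustered in Seurat. The deposited tables hold no cells, so no doublet caller was run, barcodes shared between libraries were not analysed here, and depth is unknown.

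Each deposited share is the fraction of cells with a value above 0, to 3 decimals, given inside a subcluster and in all other ILC2s, and was multiplied to a percentage here. The deposited log2 fold changes and p-values (over cells, by the authors) are their own comparisons and were not used. The tables held 0 columns of per-sample values. From the cell type table only the listing of genes was used.

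Subcluster sizes came from a least squares fit to the genes that 2 or more subclusters list: the share outside plus size times the difference of both shares is equal for all listings of a gene. Cell numbers were searched from 30 to 999 on the grid of rounded shares. On simulated data 5 of 5 cell numbers were recovered, and the largest error of a size was 0.0388 points over 2629 genes. The total of ILC2s was solved jointly from 214 genes of the 5 smallest subclusters. The share in subclusters that do not list a gene was solved from the sizes. Intervals are exact 95% binomial (Clopper-Pearson) and cover counting error only. Coordinates are from GENCODE M21 (GRCm38), where all 190 symbols matched and 184 genes were protein coding. Promoters are from RefSeq, where 151 genes matched.

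Named genes were the markers of the subcluster (1 of them, and 2 lists that hold it, are not reported here), the 12 largest differences in share, the 12 largest of genes not listed for subcluster 2, the 6 largest and 6 smallest differences from subcluster 2 among genes of both, the 8 largest of genes listed for 2 and not 6, the 6 largest of genes listed for 6 alone, and list members. Others were named after their values were seen. The members and lists were chosen with earlier results of these data known. No test was made. Ribosomal protein and mitochondrially encoded genes numbered 0 in the table. Python 3.11.15, pandas 2.3.3, NumPy 2.4.6 and SciPy 1.17.1 were used.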

Additional observations from a re-analysis of the deposited data

How the results depend on the processing

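Of 17 alternatives, 16 were counted as leaving the value the same, and drops such as 190 to 152 or 104 to 81 were counted so. Some could change nothing, such as leaving out gene classes with no listed gene. The list of subcluster 6 numbered 178 genes with a share at least 5 points above outside and 152 with at least 10, against 190. The genes of both subclusters 6 and 2 numbered 97 and 81 at these thresholds, against 104, and those of 6 and not 2 numbered 81 and 71, against 86. The size ranged from 3.70% to 3.73%, and the size times the total of the other small subclusters gave 509 cells, against 516. Leaving out ribosomal protein and mitochondrially encoded genes left all counts as they were, because none was listed. The exception was the count of genes of both lists with a higher share in subcluster 6, which was 100 for any difference and 48 where the whole interval had to lie above the share in subcluster 2. With 516 cells, an interval reached 2.99 points to either side at the median and 4.40 points at most, and was narrower for genes found in nearly every cell. The intervals take the shares in subcluster 2 and in the other subclusters as exact. No paired analysis was possible because the tables give no value per library and a group holds 1 library.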
